A study of Mus musculus with 4 samples.

Results

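Matrix proteases and their inhibitors were followed in crest-derived cells sorted from the gut of mouse embryos. The genes were taken by symbol from the deposited table: matrix metallopeptidases (Mmp with a number), disintegrin metallopeptidases (Adam with a number), their thrombospondin-repeat relatives (Adamts with a number) and the tissue inhibitors Timp1 to Timp4. They numbered 77 of 27178 genes, made up of 21 MMP, 33 ADAM, 19 ADAMTS and 4 TIMP genes. Of these, 44 had at least 1 read, 20 had 10 or more reads over the 4 libraries, and 12 passed the abundance filter of the count test.

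All 4 libraries came from Wnt1-tdT embryos taken 11.5 days post coitum, in which the fluorescent reporter marks neural crest derivatives, and no other allele or treatment is named. In the wavefront group (2 libraries) the sorted reporter-positive cells came from the front of the invading population, and in the trailing group (2 libraries) from 1 to 1.5 mm behind it. The comparison asked how the cells at the front differ in mRNA. Gut tissue was dissociated with collagenase and dispase, which are themselves proteases, before sorting. Nothing in the labels ties a replicate to its own embryo or litter. The p-values below therefore describe how these 4 libraries vary, and that variation may be technical.

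MMPs are zinc enzymes that cut collagens, laminins and other matrix proteins, and are either secreted or anchored in the cell membrane. ADAMs are membrane proteins, many of which cut the outer part off other surface proteins, and ADAMTS enzymes are secreted and cut proteoglycans such as versican. TIMPs bind the active site of these enzymes and block it. Crest cells cross a matrix-rich gut wall as they migrate, and such enzymes can open or remodel that matrix.

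Reads outside ribosomal RNA numbered between 330644 and 452144 in 3 libraries. Wavefront replicate 2 had 114972 such reads, and ribosomal RNA took 55.5% of its total. Values below are scaled CPM: reads recovered from the deposited CPM, divided by library sizes adjusted with TMM factors (a trimmed-mean scaling), in CPM units. In these units 1 read is worth 1.89 and 2.10 in trailing replicates 1 and 2, and 1.68 and 5.84 in wavefront replicates 1 and 2. Wavefront replicate 2 therefore carries the largest counting error. Ret and Sox10, markers of enteric crest, had reads in every library, and the crest list of 10 genes summed to between 2139 and 4153 scaled CPM. Of those 10 genes 9 or more were detected in each library.

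The start-site regions of Adamts1 and Timp3 are shown first because these were the 2 members with an unadjusted p under 0.05 in the count test, in opposite directions. Sequences are from RefSeq (GRCm38.p6), which gave a window for 47 of the 77 members. Each run holds the 250 bases before the RefSeq start site, 5′ to 3′ on the gene's strand. Adamts1 lies on the minus strand (chr16:85803114-85803363) and Timp3 on the plus strand (chr10:86300162-86300411). In GENCODE M21, the source of the gene coordinates below, Timp3 starts at 86300372, inside this window. The marked match of Timp3 lies past that start. Capitals mark matches, on either strand, to a GC box (GGGCGG, or CCGCCC on the other strand), a TATA box (TATAAA), an AP-1 site (TGANTCA), a cAMP response element (TGACGTCA) or a SOX-type core (ACAAAG).
Adamts1: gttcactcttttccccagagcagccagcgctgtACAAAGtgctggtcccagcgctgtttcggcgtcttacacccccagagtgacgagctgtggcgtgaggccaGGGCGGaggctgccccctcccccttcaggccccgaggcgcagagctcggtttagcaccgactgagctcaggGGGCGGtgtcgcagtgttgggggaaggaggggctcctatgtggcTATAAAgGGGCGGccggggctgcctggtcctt
Timp3: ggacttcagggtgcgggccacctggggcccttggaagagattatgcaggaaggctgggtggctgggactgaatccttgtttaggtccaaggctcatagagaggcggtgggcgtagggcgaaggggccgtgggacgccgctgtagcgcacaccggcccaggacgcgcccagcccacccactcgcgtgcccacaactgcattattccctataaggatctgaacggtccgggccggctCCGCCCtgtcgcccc
The Adamts1 window held 3 GC boxes, a TATA box 27 to 32 bases before the start and a SOX-type core, while the Timp3 window held 1 GC box, on the opposite strand. Of 32851 RefSeq windows of this length 32.7% held a GC box, 12.4% a TATA box, 6.75% the AP-1 letters, 1.55% the cAMP response letters and 16.5% the SOX-type letters. A match is a run of letters and was not tested as a binding site.

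None of the 12 members tested by counts passed the threshold between wavefront and trailing cells. In edgeR's quasi-likelihood test 0 of 12 had a Benjamini-Hochberg adjusted p under 0.05, against 1.74% of all 5759 genes tested. By direction, 0.399% of those genes passed as higher in wavefront cells and 1.34% as lower. At an unadjusted p under 0.05 there were 2 of 12, Adamts1 and Timp3, against 9.9% of all genes. The test on log2(CPM + 1), limma, called 0 of 34 members, with 0 at an unadjusted p under 0.05, where it called 0% of 12519 genes and 6.85% reached that unadjusted level. DESeq2 on the recovered reads called 0 of 5 members, against 0.426% of all genes, and 1 member reached an unadjusted p under 0.05, as did 2.42% of all genes. Without the abundance filter edgeR called 0 of 44, against 0.802% of all genes. Of these 44, 3 (Adamts1, Adam17 and Timp3) reached an unadjusted p under 0.05, as did 6.5% of all genes. In the authors' deposited table, with p-values adjusted here, 0 of 44 passed, against 0.0891% of all genes, and 0 had an unadjusted p under 0.05, against 0.973%. Taken as wavefront over trailing on the log2 scale, the median change was 0.19 over the 12 and 0.01 over all genes tested. Of the 12, 8 lay above 0, against 50.6% of all genes. In limma 4 of the same 12 did, against 29.2% of the 12519 genes tested there. The signs of Adam10, Adam19, Mmp14 and Mmp15 differed between these fits. The scaling moves all genes: with library size alone the median was 0.00 over the 12 and -0.20 over all genes.

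**Figure D1:**
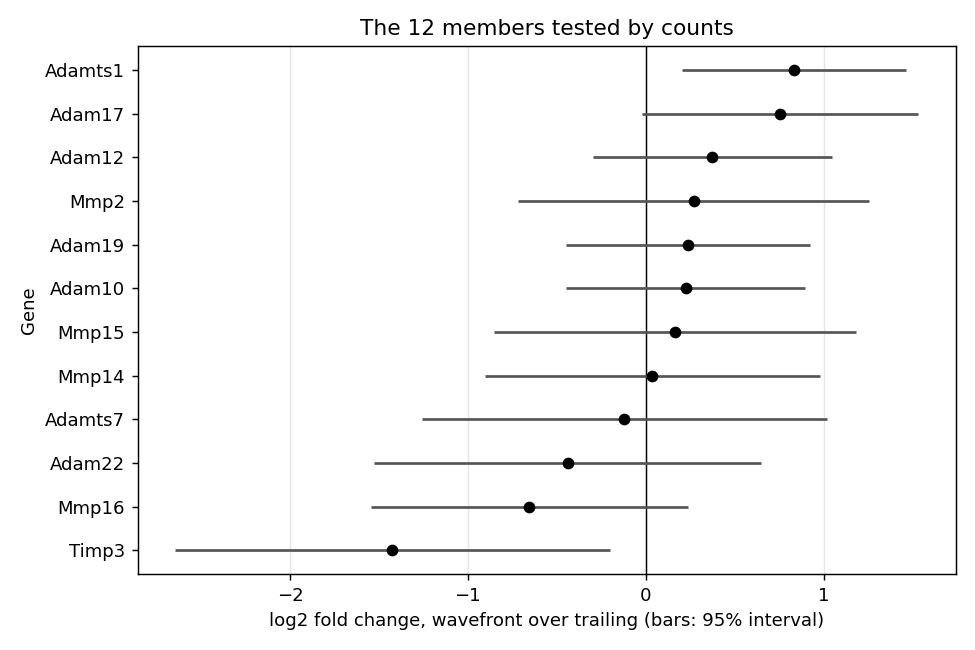
Log2 fold change, wavefront over trailing, of the 12 members tested by counts (x axis), with 95% intervals from edgeR's quasi-likelihood fit as bars and a line at 0. The intervals of Adamts1 (0.20 to 1.46) and Timp3 (-2.65 to -0.20) leave out 0 before adjustment for multiple tests, and the other 10 include it.

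Among the secreted MMPs, Mmp2 was the member with the most reads. Mmp2 (chromosome 8, 92827291 to 92853420, GRCm38), the gelatinase that cuts denatured collagen and type IV collagen, had 24.6 and 29.3 scaled CPM behind the front and 26.9 and 46.7 at the wavefront. The groups overlapped, since wavefront replicate 1 lay between the trailing libraries and only wavefront replicate 2 was higher. The log2 fold change of Mmp2 was 0.27 ± 0.49 SE (edgeR adjusted p = 0.92), with a 95% interval from -0.72 to 1.25. Mmp11, stromelysin-3, had 5 and 3 trailing reads against 2 and 1 wavefront reads, a scaled ratio of trailing over wavefront of 2.03 with a 95% exact binomial interval from 0.488 to 11.9. The reads carry no molecular identifiers, and intervals and floors based on them cover counting error only. Mmp19 had 9 reads in all and Mmp28 had 1.

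The other 10 secreted MMPs had 0 reads in every library. These include the gelatinase Mmp9, the stromelysins Mmp3 and Mmp10, the collagenases Mmp8 and Mmp13, the macrophage elastase Mmp12 and matrilysin, Mmp7. A count of 0 over the 4 libraries together allows a level of up to 1.69 scaled CPM (3 reads), and in wavefront replicate 2 alone up to 17.5. Of the 10, 8 lie together on chromosome 9 (Mmp3, Mmp7, Mmp8, Mmp10, Mmp12, Mmp13, Mmp20 and Mmp27), between 7272514 and 7699585. The collagenase Mmp1 genes carry a letter in mouse, are outside the symbol rule and were not analysed here.

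All 7 membrane-anchored MMPs had a read, and 3 of them had 10 or more reads. Mmp14 (chromosome 14, 54431612 to 54445364), the membrane enzyme that activates Mmp2, had 24.6 and 39.8 scaled CPM for trailing cells and 31.9 and 35.1 at the wavefront. Both wavefront values lay between the trailing ones. The log2 fold change of Mmp14 was 0.04 ± 0.47 SE (edgeR adjusted p = 0.993), and its 95% interval left out rises above 1.97-fold and falls beyond 1.87-fold. Mmp15, a close relative, had 22.7 and 27.2 trailing against 31.9 and 17.5, so the wavefront libraries lay on either side of the trailing pair (0.16 ± 0.50 SE, edgeR adjusted p = 0.962). The wavefront mean of Mmp15, 24.7, lay just below the trailing mean, the other direction from that fitted change.

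Mmp16 was the membrane MMP whose groups did not overlap. Mmp16 (chromosome 4, 17852893 to 18119145), another membrane-type MMP, had 36.0 and 56.6 scaled CPM behind the front and 26.9 and 35.1 at the wavefront. The gap between wavefront replicate 2 and trailing replicate 1 was less than 1 scaled CPM, below the worth of 1 read in either library. The log2 fold change was -0.65 ± 0.44 SE, with a 95% interval from -1.55 to 0.24 (edgeR adjusted p = 0.705). Mmp17 and Mmp24 had 6 reads each, Mmp23 had 3 and Mmp25 had 1.

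Adam10, Adam17, Adam12 and Adam19 are active proteases, and none of them passed the test. In scaled CPM each was higher in both wavefront libraries than in both trailing ones, but in the deposited CPM this held for Adam17 and not for Adam10, Adam12 and Adam19, whose lowest library was then wavefront replicate 2. Adam10 (chromosome 9, 70678997 to 70780229), which cuts Notch receptors and N-cadherin, had 58.7 and 69.2 scaled CPM for trailing cells and 73.9 and 76.0 at the wavefront. The distance between the groups was under 5 scaled CPM, less than 1 read is worth in wavefront replicate 2. The deposited CPM of Adam10 were 59.96 and 73.0 against 81.0 and 49.96, which overlap. Its log2 fold change was 0.22 ± 0.33 SE (edgeR adjusted p = 0.903), and the 95% interval left out rises above 1.86-fold and falls beyond 1.37-fold. Adam17 (chromosome 12, 21323509 to 21373632), the converting enzyme of tumour necrosis factor, had 34.1 and 44.0 against 53.7 and 93.5. Wavefront replicate 2, at 16 reads, was the high one, and the spread within the wavefront exceeded the gap between the groups. Its log2 fold change was 0.76 ± 0.39 SE, with a 95% interval from -0.02 to 1.53 (edgeR adjusted p = 0.524).

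Adam12 and Adam19 are the meltrins, named for muscle cell fusion. Adam12 (chromosome 7, 133883199 to 134232146) had 53.0 and 71.3 scaled CPM behind the front and 82.3 and 76.0 at the wavefront (log2 fold change 0.37 ± 0.33 SE, edgeR adjusted p = 0.816). Adam19 (chromosome 11, 46055992 to 46147343), which can cut neuregulin, had 60.6 and 54.5 against 67.2 and 70.1 (0.24 ± 0.34 SE, edgeR adjusted p = 0.896). In the deposited CPM wavefront replicate 2 was at 49.96 for Adam12 and 46.1 for Adam19, below both trailing libraries. Adam9 had 11.4 and 18.9 against 15.1 and 17.5, with the wavefront values inside the trailing range, and Adam15 had 3 and 5 reads against 3 and 0.

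Some ADAMs that lack the zinc-binding site, such as Adam11, Adam22 and Adam23, act as surface receptors and adhesion partners, mainly in neurons. Adam22, a receptor for the secreted protein LGI1, had 36.0 and 18.9 scaled CPM for trailing cells and 23.5 and 11.7 at the wavefront. The groups overlapped and the log2 fold change was -0.44 ± 0.54 SE (edgeR adjusted p = 0.872). Adam11 had 6 and 3 reads against 6 and 1, and Adam23 had 3 and 4 against 0 and 1. Beside these genes, the enteric neuron list summed to 3806 and 4022 scaled CPM behind the front and 924 and 736 at the wavefront, and 14 of its 15 tested genes fell. The part of neuron content in the values of Adam22, Adam11 and Adam23 was not tested. In bulk samples fewer cells of a type and less RNA per cell cannot be told apart.

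Many ADAM genes of the mouse are known from testis and sperm. Of the 33 ADAM genes 17 had 0 reads, and 10 of these lie on chromosome 8 (Adam3, Adam18, Adam20, Adam24, Adam25, Adam26a, Adam26b, Adam29, Adam34 and Adam39). Of the 13 ADAM genes on that chromosome 3 had a read: Adam9, Adam5 and Adam32. Adam5 had 1 read in each trailing library, and Adam32 had 1 read in wavefront replicate 1.

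Adamts1 had the most reads of all 77 genes and the lowest p of the 12 tested. Adamts1 (chromosome 16, 85793827 to 85803113), a secreted enzyme that cuts versican and aggrecan, had 81 reads in each trailing library, 143 in wavefront replicate 1 and 60 in wavefront replicate 2. In scaled CPM, trailing cells had 153 and 170 and wavefront cells 240 and 351. Both wavefront libraries lay above both trailing libraries, as they did in the deposited CPM (157 and 179 against 263 and 231), and in scaled CPM the wavefront libraries stood farther from each other than the trailing ones. The group values were 162 ± 11.6 and 295 ± 78.1 (SD, n = 2 each). The log2 fold change was 0.83 ± 0.31 SE with a 95% interval from 0.20 to 1.46 (edgeR adjusted p = 0.263), so the difference did not pass. The authors' deposited table gives a log2 fold change of 0.70, with p = 0.0501. Over 12 alternative settings the log2 fold change of Adamts1 ran from 0.54, with library size alone, to 1.12, without wavefront replicate 1, and its lowest adjusted p in edgeR was 0.152.

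Adamts1 took a large share of the family's reads. It gave 68.6% and 68.1% of the summed scaled CPM of the 19 ADAMTS genes in the trailing libraries, and 86.7% and 71.4% in wavefront replicates 1 and 2. Of the reads of all 77 members it gave 22.8% and 21.3% in the trailing and 31.6% and 33.9% in the wavefront libraries.

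Adamts5, the neighbour of Adamts1 on chromosome 16, had wavefront values on either side of its trailing ones. The genes are 53059 bases apart and on the same strand. Adamts5, also a versican and aggrecan cutting enzyme, had 24.6 and 16.8 scaled CPM for trailing cells and 5.04 and 29.2 at the wavefront. These were 13, 8, 3 and 5 reads. It was below the filter of the count test. Adamts4, the other aggrecanase, had 2 and 7 reads against 1 and 1, a scaled ratio of trailing over wavefront of 3.43 with a 95% exact binomial interval from 0.710 to 32.6.

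Adamts7, which cuts cartilage oligomeric matrix protein, had 20.8 and 23.1 scaled CPM behind the front and 16.8 and 29.2 at the wavefront, with overlap in scaled CPM (log2 fold change -0.12 ± 0.57 SE, edgeR adjusted p = 0.974). Its group means, 21.9 and 23.0, differed in the other direction. Adamts10, tied to fibrillin microfibrils, had 5 and 8 reads against 5 and 8, which is 9.47, 16.8, 8.40 and 46.7 scaled CPM. Equal reads give a higher value in wavefront replicate 2, where 1 read is worth most. Of the other ADAMTS genes, 9 had 1 to 4 reads in all, and Adamts8, Adamts9, Adamts13, Adamts16 and Adamts19 had 0.

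**Figure D2:**
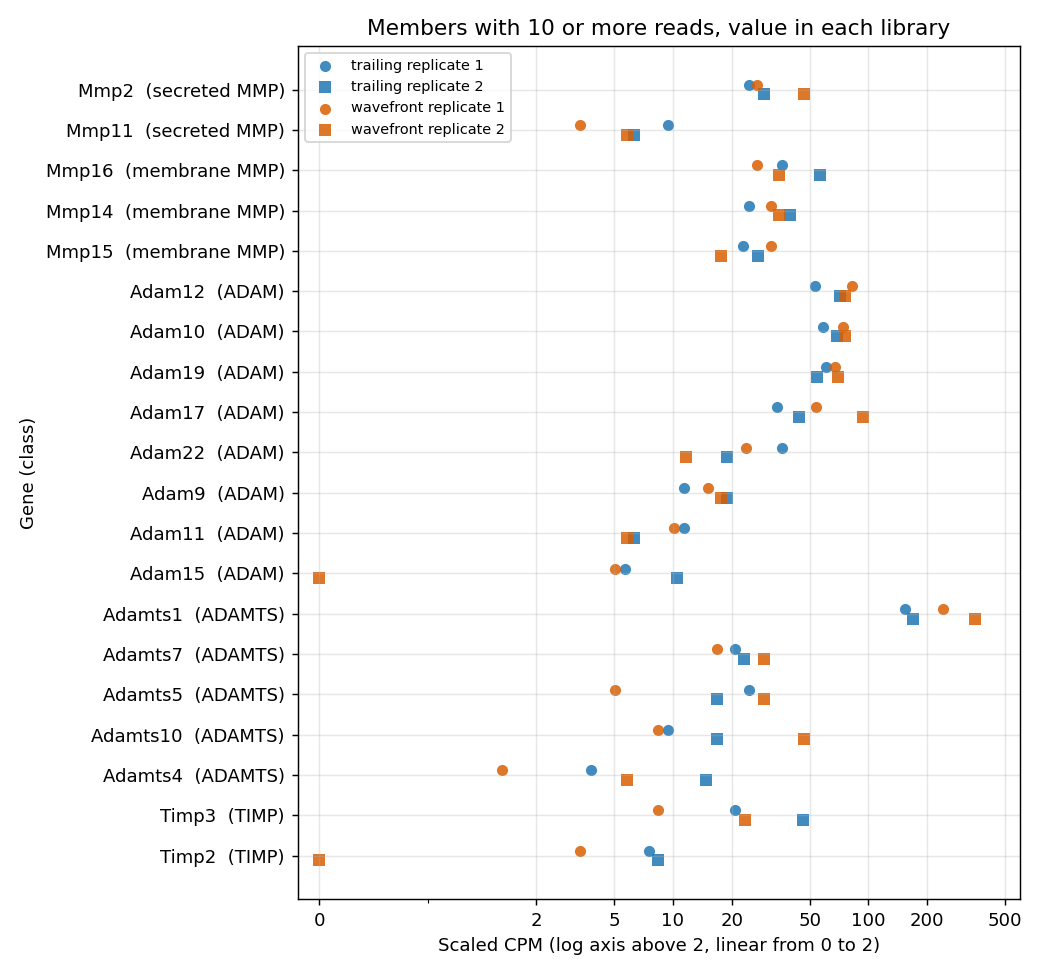
Scaled CPM of the 20 members with 10 or more reads in each library (x axis, logarithmic above 2 and linear from 0 to 2), grouped by class. Circles are replicate 1 and squares replicate 2, blue for trailing and orange for wavefront. Adamts1 stands apart to the right at 153 to 351, and most other members lie under 100 with the colours mixed.

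Timp3 had the most reads of the inhibitors and the lowest fitted fold change of the 12 tested members. Timp3 (chromosome 10, 86300372 to 86349506), the inhibitor that stays bound to the matrix and also blocks Adam17 and ADAMTS enzymes, had 11 and 22 reads for trailing cells and 5 and 4 at the wavefront. In scaled CPM these were 20.8 and 46.1 against 8.40 and 23.4. Wavefront replicate 2 lay just above trailing replicate 1, so the groups overlapped on this scale. In the deposited CPM, 21.3 and 48.7 against 9.21 and 15.4, they did not. The log2 fold change was -1.42 ± 0.61 SE with a 95% interval from -2.65 to -0.20 (edgeR adjusted p = 0.397), and it did not pass. Over 12 alternative settings it ran from -1.89, without wavefront replicate 2 (edgeR adjusted p = 0.106), to -0.49, without wavefront replicate 1, and it was -0.66 without trailing replicate 2. In the authors' deposited table the value for Timp3 is -0.53 (p = 0.254). DESeq2 run here on the recovered reads gave -1.23, farther from 0 than the deposited value.

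The other inhibitors had few reads. Timp2, which both blocks Mmp2 and helps Mmp14 to activate it, had 4 and 4 trailing reads against 2 and 0 wavefront reads, a scaled ratio of trailing over wavefront of 3.05 with a 95% exact binomial interval from 0.609 to 29.5. Timp1 had 1, 2, 1 and 1 reads, and Timp4 had 0 in all. The interval of Timp2 includes 1, so no difference was detectable at this depth.

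The library kit does not keep strand, so a read in exon bases shared by a pair of genes could come from either. Among the 20 members with 10 or more reads, Timp3, Adam17, Adamts7 and Mmp11 share exon bases with another gene that has reads. Exons of Timp3 share 1733 bases with Syn3, which had 9 reads (3 and 0 trailing, 4 and 2 wavefront). Adam17 shares 311 bases with Iah1 (11 reads). Adamts7 shares 122 bases with Tbc1d2b (22 reads), and Mmp11 shares 155 with Chchd10 (2 reads). The sources used here do not say how the counting treated such bases.

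Summed over a class, in scaled CPM and in deposited CPM alike, the ADAMTS genes were higher in both wavefront libraries than in both trailing ones and the TIMP genes were lower. The ADAM sum was higher in both wavefront libraries in scaled CPM, but in deposited CPM it was 290.1 and 329.5 against 372 and 234, which overlap. The secreted MMP sum overlapped in scaled CPM and was lower in both wavefront libraries in deposited CPM, and the membrane MMP sum overlapped on both scales. These sums were not tested. The 33 ADAM genes summed to 284 and 312 scaled CPM behind the front and 339 and 356 at the wavefront. The 19 ADAMTS genes summed to 223 and 249 against 277 and 491, most of it from Adamts1. The 7 membrane MMPs summed to 94.7 and 134 against 97.4 and 93.5, and the 14 secreted MMPs to 41.7 and 41.9 against 31.9 and 64.3. The 4 TIMPs summed to 30.3 and 58.7 against 13.4 and 29.2, with trailing replicate 1 just above wavefront replicate 2. With reads per kilobase of exon, the MMP sum was 4.20 and 2.63 times the TIMP sum in the trailing libraries and 6.77 and 3.68 times in the wavefront libraries. These ratios overlapped between the groups. They rest on few reads: 1 read of the short gene Timp1 gave 1.89 of a TIMP sum of 3.78 per kilobase in wavefront replicate 1. In wavefront replicate 2, 1 read of it gave 6.58 of 9.45.

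**Figure D3:**
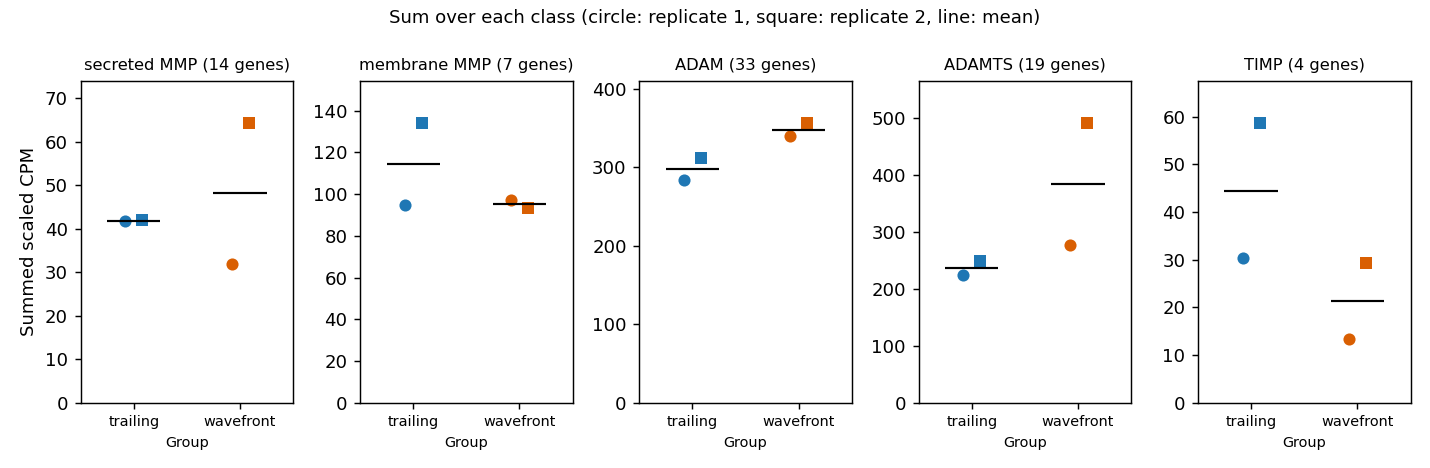
Summed scaled CPM of each class in each library (y axis, from 0), by group on the x axis. Circles are replicate 1, squares replicate 2 and lines the mean of 2 libraries. The ADAM sums sit at 284 and 312 in trailing and 339 and 356 in wavefront libraries, an order that is lost in the deposited CPM, and the ADAMTS wavefront pair is spread from 277 to 491.

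The 5 members with the most reads, Adamts1, Adam12, Adam10, Adam19 and Adam17, were those of the 12 tested whose wavefront libraries both exceeded both trailing libraries in scaled CPM, and in the deposited CPM 2 of them did, Adamts1 and Adam17. Among all genes tested by counts 18.3% had this order in scaled CPM and 6.18% in deposited CPM. The opposite order was seen in 20.9% of all genes and 1 of the 12 members, Mmp16, in scaled CPM, and in 27% of all genes and 3 of the 12, Mmp16, Timp3 and Adamts7, in deposited CPM. Below the filter, Mmp11, Adam15 and Timp2 had that lower order too in scaled CPM, at 10 or 11 reads each. Some members with fewer reads also had it. For Adam15 and Timp2 the order includes 0 reads in wavefront replicate 2, the shallowest library. The share of all genes below the filter with this order was not counted. Members share the same 4 libraries and the same scaling, so their directions are not independent of each other.

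Levels can be compared between genes only per length, and here they are scaled CPM per kilobase of merged exons, as a mean ± SD over the 4 libraries. Adamts1 led with 43.1 ± 16.9 per kilobase, at the 94.7th percentile of genes with a read. Adam10 was next with 14.1 ± 1.57, and its highest library, 15.5, was below the lowest of Adamts1, 28.9. Mmp2 followed at 9.46 ± 2.99, then Adam19 at 8.87 ± 0.981, Adam17 at 7.87 ± 3.64, Adam12 at 6.68 ± 1.19 and Mmp14 at 5.51 ± 1.07. From Adam10 downward each gene's range overlapped that of the next, so neighbours in this order do not differ beyond their spread. The lower part of the order ran from Mmp15 at 4.60 through Mmp16, Adam9 and Adamts7 to Timp3 at 3.03 ± 1.93 and, last of the 20, Adam15 at 0.862. Merged exons count every annotated isoform, so genes with long rare exons are understated.

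Beside the members, markers of other cell types differed between the libraries. The gut mesenchyme list summed to 178 and 176 scaled CPM in trailing cells, 403 in wavefront replicate 1 and 1069 in replicate 2 of that group, with 9, 11, 10 and 16 of its 22 genes detected. Of its 3 tested genes 2 rose, Col3a1 and Des, and Twist1, Twist2, Barx1, Myh11, Tbx18 and Osr1 had 0 reads throughout. Much of the sum came from Col3a1, with 123 and 122 scaled CPM in the trailing and 222 and 549 in the wavefront libraries. Des had 15.2 and 12.6 against 123 and 58.4. Col3a1 is also among the matrix substrates below, so the 2 lists are not independent. The mesenchymal factors Foxf1 and Foxf2 had 2 and 3 reads in wavefront replicate 2 and 0 elsewhere. The erythroid list of red cell genes summed to 3.79, 0, 1.68 and 649 in trailing replicates 1 and 2 and wavefront replicates 1 and 2. The endothelium list summed to 49.2 and 60.8 against 67.2 and 76.0, the leukocyte list to 3.79 and 10.5 against 3.36 and 29.2, and Ptprc, the common leukocyte marker, had 0 reads. The gut epithelium list summed to 7.58 and 6.29 against 25.2 and 58.4, the mesothelium list to 0, 0, 0 and 11.7, and the muscle and cartilage list to 18.9 and 25.1 against 11.8 and 11.7. In scaled CPM the mesenchyme and erythroid sums were highest in wavefront replicate 2. Of the 20 members with 10 or more reads, Adamts1, Adam10, Adam17, Adam19, Mmp2, Adamts5, Adamts7 and Adamts10 were highest there too. The others were highest in another library. The share of all genes that were highest in wavefront replicate 2 was not counted. The ADAM, ADAMTS and secreted MMP sums were also highest there. In the deposited CPM Adam17, Adamts10 and the ADAMTS sum stayed highest in that library. Adamts1, Adam10, Adam19 and the ADAM sum were then highest in wavefront replicate 1. Mmp2, Adamts7 and the secreted MMP sum were then highest in trailing replicate 2, and Adamts5 in trailing replicate 1. The part of these cell types in the protease values was not tested. Without wavefront replicate 2 the log2 fold change of Adamts1 was 0.62, and that of Adam17 was 0.52.

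**Figure D4:**
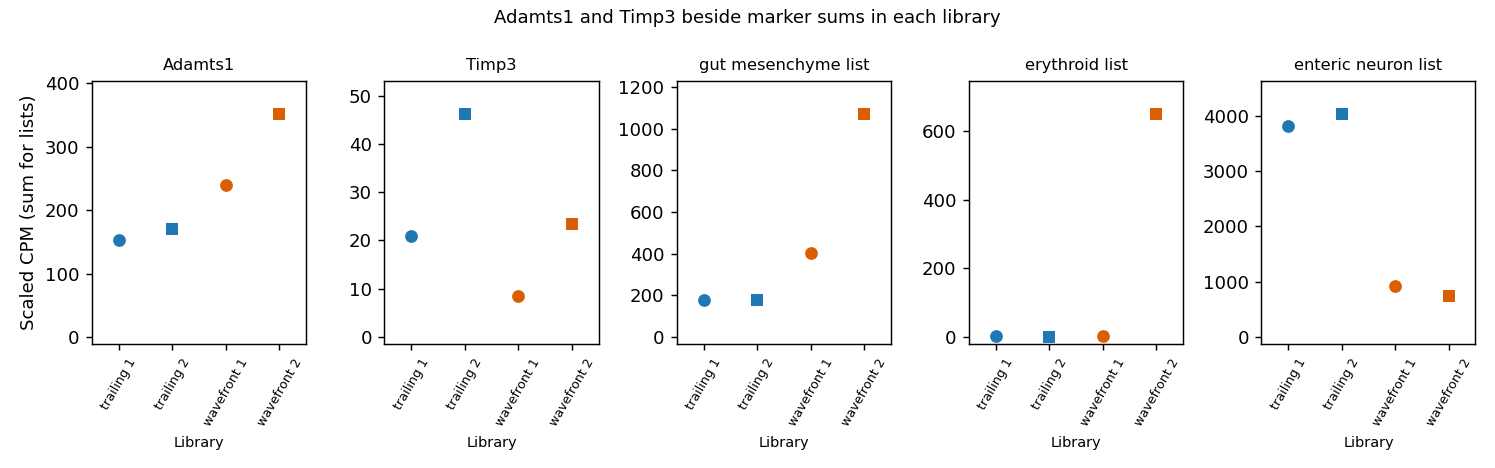
Scaled CPM of Adamts1 and Timp3, and summed scaled CPM of the gut mesenchyme, erythroid and enteric neuron marker lists, in each of the 4 libraries (x axis). Each panel has its own y axis, which includes 0. Adamts1 (153, 170, 240 and 351) and the mesenchyme sum (178, 176, 403 and 1069) are both highest in wavefront replicate 2 on this scale (in the deposited CPM Adamts1 is highest in wavefront replicate 1), and the erythroid sum (649) is seen in that library.

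Genes around these enzymes were taken from 10 lists of 134 genes: 53 were tested by counts, 5 passed as higher, 1 passed as lower and 47 did not pass, where 1.74% of all genes tested passed. All 6 calls were in lists of possible substrates. The 10 lists were chosen with earlier results of these data known. The counts therefore cannot show whether such genes changed more often than others. Of 15 tested matrix substrates Fn1 (fibronectin), Tnc (tenascin C), Col3a1 (type III collagen) and Fbn2 (fibrillin 2) rose, Postn (periostin) fell and 10 did not pass, with a list median of 0.44. Of 13 tested surface proteins shed by ADAMs, Cdh11, a mesenchymal cadherin, rose by 3.91 on the log2 scale and 12 did not pass, with a list median of -0.20. The log2 fold changes were 1.53 for Fn1, 2.69 for Tnc, 1.58 for Col3a1, 1.23 for Fbn2 and -2.09 for Postn. With the authors' p-values adjusted here none of them passed, and with library size alone Fn1, Col3a1 and Fbn2 did not. DESeq2 gave no adjusted p for Tnc. Without trailing replicate 1, and with DESeq2, none of Fn1, Tnc, Col3a1, Fbn2 and Postn passed. Fn1, Col3a1 and Fbn2 did not pass without trailing replicate 2 either, nor Fbn2 without wavefront replicate 1, nor Col3a1, at 0.91, without wavefront replicate 2. Among the 12 alternative ways of running the count test, Fbn2 passed in 2 and Cdh11 in all 12. In limma 0 of 96 genes of the 10 lists passed, with 20 at an unadjusted p under 0.05, a level reached by 6.85% of all genes. Ngfr and Cdh2, abundant surface substrates, did not pass, with 426 ± 126 and 574 ± 126 scaled CPM for Ngfr and 372 ± 1.33 and 378 ± 154 for Cdh2 (trailing, then wavefront; SD, n = 2 each).

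In the other 8 lists 0 of 25 tested genes passed in edgeR's test, with 6 at an unadjusted p under 0.05 (9.9% of all genes). In limma 0 of 56 passed, with 9 at that level (6.85% of all genes). Among regulators of Adam10 and Adam17, Tspan14, a tetraspanin partner of Adam10, had 91.3 ± 7.53 and 88.7 ± 6.73 scaled CPM in trailing and wavefront cells. Frmd8, which stabilises the iRhom and Adam17 complex, had 45.3 ± 13.6 and 73.7 ± 21.6 (log2 fold change 0.80 ± 0.35 SE, edgeR adjusted p = 0.418). Among MMP activators and membrane regulators Bsg, the MMP inducer basigin, had 392 ± 32.4 and 273 ± 47.9. In the plasminogen system the inhibitor Serpine2, protease nexin 1, had 72.8 ± 3.80 and 40.6 ± 16.2.

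Cathepsins are proteases of the lysosome that can also act outside the cell. Ctsb, cathepsin B, had 456 ± 126 scaled CPM in trailing and 223 ± 17.5 in wavefront cells (log2 fold change -1.02 ± 0.33 SE, edgeR adjusted p = 0.119), and it did not pass. Ctsl had 175 ± 17.0 and 134 ± 66.3, and Ctsd had 104 and 90.1 in the trailing and 78.9 and 111 in the wavefront libraries. Of the 7 tested cathepsins and cystatins 0 passed in edgeR's test, with 3 at an unadjusted p under 0.05 (9.9% of all genes). Their median log2 fold change was -0.53, against 0.01 over all genes tested. Bmp1, the procollagen C-proteinase, had 32.2 and 27.2 in the trailing and 52.1 and 29.2 in the wavefront libraries. Cemip2, a surface hyaluronidase, had 122 ± 20.8 and 157 ± 25.4 in trailing and wavefront cells. Sulf2, a heparan sulfate endosulfatase, had 86.2 ± 17.4 and 50.2 ± 4.95, and it did not pass (edgeR adjusted p = 0.469).

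Adamtsl2, which resembles ADAMTS enzymes but has no protease domain, was too low for the count test but uneven between the groups. It had 9 and 8 reads for trailing cells and 1 and 0 at the wavefront. The scaled ratio of trailing over wavefront was 13.0 with a 95% exact binomial interval from 2.03 to 542. It was chosen from the 7 ADAMTS-like genes after its values were seen, and limma gave it an adjusted p of 0.68.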

How the data were processed

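RNA of sorted cells was measured in 4 libraries, 2 a group, made with the Nextera XT kit, which does not keep strand. STAR 2.5.2b and featureCounts are named in the submitters' processing notes for the genome GRCm38, besides bcl2fastq 2.17, FastQC 0.11.9 and DESeq2. The sources used here name neither the annotation nor the counting settings. The authors deposited CPM per library. All values were whole multiples of 1 read (100% within 0.01 reads), so reads were recovered. The authors' deposited BaseMean is a signal (reads over size factors), their fold change and standard error are log2 values, their Wald statistic is a score, and their p-value is unadjusted.

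The design set limma 3.58.1 on log2(CPM + 1), keeping genes whose mean CPM exceeded 1, and edgeR 4.0.16 (TMM, filterByExpr with 10 reads, quasi-likelihood F test) on recovered reads. DESeq2 1.42.0 under R 4.3.3 was an alternative. Location was the only term and all tests were two-sided, with Benjamini-Hochberg adjustment over all genes tested and a threshold of 0.05. Standard errors and 95% intervals came from the fold change and F statistic. Of 27606 rows 428 repeated the identifier of an earlier row and were left out. Rows without a symbol numbered 958 and held 1.27 to 2.51% of the reads. Coordinates, exon lengths and overlaps are from GENCODE M21. The fits were also run on simulated data. The outcome is not reported here, so the size of change they could detect is not shown.

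The members, lists and tests were chosen with earlier results of these data known. Members with 10 or more reads were given with values in each library, and others by counts. Of related lists, genes that passed and the 4 with the most reads could be named. Replicates differed by more than counting noise (chi-square per degree of freedom 2.06 in trailing and 2.85 in wavefront libraries, outside ribosomal RNA). Beyond the exon overlaps given, a further one is not reported here.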

Additional observations from a re-analysis of the deposited data

How the results depend on the processing

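The count of members called stayed at 0 under all 12 alternatives of the count test and all 11 of the test on log2 CPM. Depth limits this, since 12 of the 77 genes passed the filter of the count test. Over all genes, the count test's 100 calls were 15 with DESeq2, 13 with the authors' p-values adjusted here, 61 with a replicate block and between 40 (without trailing replicate 2) and 143 (without wavefront replicate 2) with a library left out, 44 without trailing replicate 1. Limma's 0 calls were 3 with a pseudocount of 5, 5 without a filter, 36 for a mean CPM above 10, 9 with DESeq2 size factors, 4 without ribosomal RNA rows, 52 with the replicate block and 0 with any library left out; edgeR gave 100. Where 1 library of a group was left, it was assumed to vary like the other group. The labels do not say that replicate numbers pair libraries, and same-numbered deviations correlated at 0.0589 over 5759 genes. Over all genes the median of the fitted changes (log2) was 0.01 in the count test, -0.20 with library size alone and -0.35 in limma. Of the 12 members tested, 8 kept their sign under the alternatives of the count test, and of these Adam10 (-0.05) and Adam19 (-0.03) had the other sign in limma. With the deposited CPM, a scaling chosen after seeing the data, members without overlap went from 5 to 2 higher and from 1 to 3 lower at the wavefront. Mmp14 was at -0.15 with library size alone and between -0.24 and 0.42 with a library left out. Mmp15 was at -0.00212 with library size alone and between -0.50 and 0.41 with a library left out. Adam22 lay between -1.22 and 0.093, and Adamts7 between -0.33 and 0.41, with a library left out; the cause was not tested.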
